A study of Mus musculus with 6 samples.

Results

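Polycomb group proteins form the multi-subunit repressors PRC1 and PRC2, and the expression of their subunit genes was compared here between CD8+ T cells labelled Dot1l knockout and wild type. The members were 31 genes of PRC1 and PRC2 fixed by name, of which 29 were measured, among 22180 genes measured in all. A member was measured by array probe sets annotated to a single gene symbol, and where a gene had several, the brightest on average over the 6 arrays was taken. Cbx6 and Kdm2b were not measured in this sense, since the probe sets used for them name further genes as well. The members and all lists below were chosen with earlier results of these data known.

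The RNA came from CD8+ T cells of untreated C57BL/6 mice, taken fresh from spleen and peripheral lymph nodes by magnetic isolation and hybridised to 6 arrays, 3 labelled Dot1l knockout and 3 labelled wild type. The knockout was bred from Dot1l flox/flox mice and a CD4-Cre line. The Cd4 promoter is active in thymocytes before the CD4 and CD8 lineages part, so this Cre acts in CD8+ T cells and in other cells of the T lineage. The sources used here give neither ages, nor the number of mice behind each array, nor the Dot1l and Cre alleles of the wild type mice. The p-values thus measure the spread between these samples alone, which may be technical.

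PRC2 methylates histone H3 to give the mark H3K27me3, through its catalytic subunit EZH1 or EZH2 held by EED and SUZ12. PRC1 attaches ubiquitin to histone H2A through RING1 or RNF2, and its PCGF subunit decides which assembly is formed. Canonical PRC1 reads H3K27me3 through a CBX protein and compacts chromatin through PHC proteins, whereas variant PRC1 holds RYBP or YAF2 in place of CBX. In T cells PRC2 is known for restraining genes of effector differentiation, and DOT1L writes a different mark, methylation of H3K79, along transcribed genes.

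Few Polycomb subunit genes differed between the groups beyond the spread between arrays. Of the 29 measured members, 2 rose in knockout-labelled arrays, Phf19 and Pcgf5, 0 fell and 27 did not pass (limma with Benjamini-Hochberg adjustment over all 22180 genes, passing at an adjusted p under 0.05). Among all genes the same rule called 5.50%, with 4.30% higher and 1.20% lower, and among the 11389 genes above the background guide explained below it called 7.87% higher and 2.08% lower. The 6.9% of members that rose are thus a share near the background and rest on a pair of genes. At an unadjusted p under 0.05, 3 members were higher and 4 lower, against 11.2% and 6.83% of all genes. All values are log2 expression, and differences are knockout-labelled minus wild type. The median member difference was 0.04, beside -0.01 over all genes, and the median size of the differences was 0.16, beside 0.17 over the genes above that guide. In bulk RNA, fewer cells of a type and less RNA per cell cannot be told apart.

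**Figure D1:**
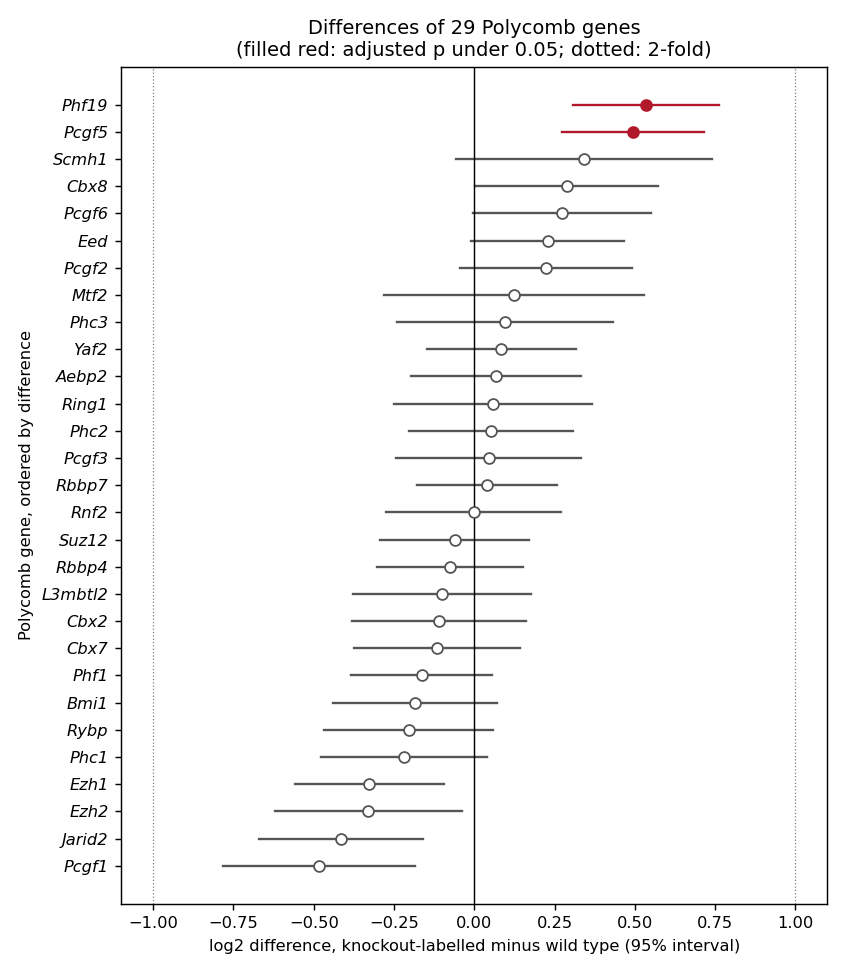
The plot gives the log2 difference (knockout-labelled minus wild type, 3 arrays each) of the 29 measured Polycomb genes with its 95% interval from limma, ordered by difference, with dotted lines at a 2-fold difference. Phf19 and Pcgf5, in filled red, passed at an adjusted p under 0.05, and the differences run from -0.48 for Pcgf1 to 0.53 for Phf19.

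The intervals bound the differences for these arrays and this fit only. For Mtf2 the interval was -0.28 to 0.53, while the fit with the covariate described below gave -0.62. The 95% intervals of all 29 members lay within a 2-fold difference in either direction, and those of 23 members lay within 1.5-fold. Among the 27 members that did not pass, the interval bounds reached from -0.78 (Pcgf1) to 0.74 (Scmh1). Members were mostly well measured: 28 of 29 had a mean above 3.84, a background guide set at the 95th percentile of 1390 receptor genes for smell and pheromones (Olfr and Vmn genes). Pcgf2, with means of 3.36 and 3.14 in knockout-labelled and wild type arrays, lay below it. The brightness of a probe set depends on its probes, so levels are not compared between genes.

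The arrays themselves and the cells on them come first. Arrays correlated at r of 0.994 to 0.995 within the knockout-labelled group and 0.989 to 0.993 within the wild type group over genes. Dot1l itself read 7.46, 6.96 and 7.18 in wild type and 7.31, 7.26 and 7.33 in knockout-labelled arrays (difference 0.10, 95% interval -0.20 to 0.40, limma adjusted p = 0.765). The sources used here do not name the exon removed, so this probe set does not check the labels, and directions refer to arrays as labelled. Of 7 measured CD8 T cell markers 1 fell and 6 did not pass, with array means of 10.6 to 10.8 in wild type and 10.5 in knockout-labelled arrays. The marker that fell was Cd5 (difference -1.01, limma adjusted p = 0.000376), which passed in 14 of 15 alternative fits. Cd4 read 3.79 and 3.86, close to the background guide. B cell markers were higher for 3 of 7 (Cd22, Ms4a1 and Cd79a, the last of which passed in 6 of 15 alternative fits), against 4.30% of all genes. The others did not pass: Ebf1 (0.26), Cd79b (0.24), Blnk (0.12) and Pax5 (-0.19). Of the 7 markers 4 lay at or below the background guide, Ms4a1 (mean 3.81) among them. Array means of the B cell markers were 4.14 to 4.39 in wild type and 4.70 to 4.94 in knockout-labelled arrays, and their part in the results below was not tested. Over the other lists, 1 of 6 CD4 helper and regulatory T cell genes was higher and 1 lower, as were 1 and 1 of 8 monocyte and neutrophil genes, 1 and 0 of 5 dendritic cell genes, 0 and 0 of 4 erythroid and platelet genes, and 0 and 0 of 4 NK and gamma delta genes.

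Phf19 showed the largest difference of any member in the values as deposited, whereas Pcgf1 differed more in size after median centring (-0.53 against 0.48) and after another quantile normalization (-0.59 against 0.36). It encodes a Polycomb-like protein that binds to PRC2 and helps to bring it to chromatin. Its wild type values were 4.58, 4.57 and 4.50, and its knockout-labelled values were 5.20, 5.01 and 5.04. The groups did not overlap, and the lowest knockout-labelled array stood 0.43 above the highest wild type array. The means were 5.08 ± 0.10 and 4.55 ± 0.05 (SD, n = 3 each, as for all means below), a 1.45-fold rise (log2 difference 0.53, SE 0.10, limma adjusted p = 0.015). The level was low in both groups, though above the background guide of 3.84, and such levels are compressed by the authors' processing. The call was lost without wild type replicate 3 (adjusted p = 0.0599), without knockout replicate 1 (0.0684) and without knockout replicate 3 (0.0586), and after the quantile normalization (0.0996).

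Pcgf5 was the other member that rose. It encodes a PCGF subunit of variant PRC1, an assembly that ubiquitinates H2A without needing H3K27me3. Wild type arrays read 7.98, 7.88 and 7.99, and knockout-labelled arrays read 8.38, 8.44 and 8.51. Every knockout-labelled value lay above every wild type value, with little spread inside each group. The means were 8.45 ± 0.06 and 7.95 ± 0.06, a 1.41-fold rise (log2 difference 0.49, SE 0.10, limma adjusted p = 0.0189). The call was lost without wild type replicate 3 (0.0526) and without knockout replicate 1, 2 or 3 (0.0525, 0.0766 and 0.0957), so neither this gene nor Phf19 passed in every fit that left out an array.

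**Figure D2:**
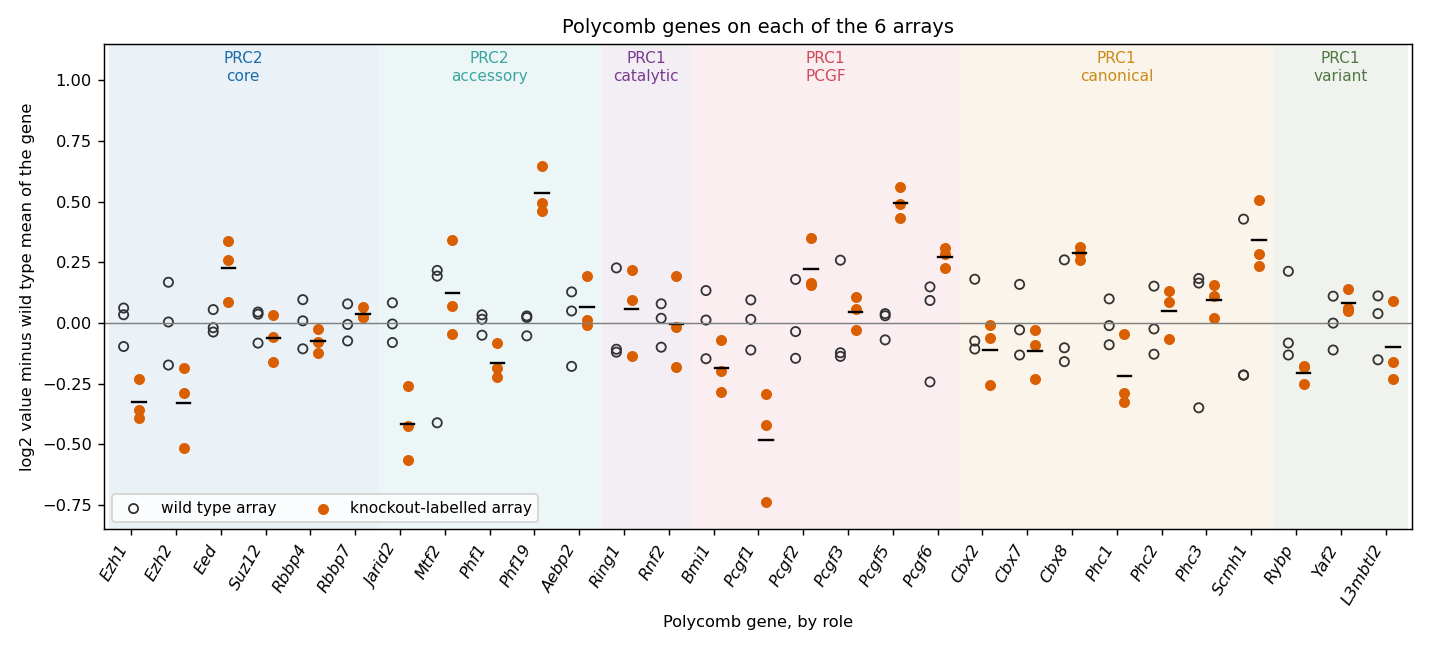
Each point is 1 array, plotted as the log2 value minus the wild type mean of that gene, for the 29 measured Polycomb genes grouped by role; open circles are wild type arrays, filled circles knockout-labelled arrays, and the short black line is the knockout-labelled mean. The groups are apart for 11 genes (37.9%), with knockout-labelled arrays above for 5 and below for 6. Over all genes the share apart is 23.5%, and among genes above the background guide 33.8%.

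The reference sequences upstream of these genes are shown because Phf19 carries the letters of a site for E2F factors, which drive genes of the cell division cycle, as does the PRC2 core gene Suz12, which did not pass. They are the 250 bases before the annotated start, 5′ to 3′ on the gene's strand, from RefSeq on the mouse build GRCm38.p6, with a match to TTTCCCGC on either strand in capitals. The Phf19 sequence lies at chr2:34913977-34914226 (minus strand), the Suz12 sequence at chr11:79992856-79993105 (plus strand), and the Pcgf5 sequence at chr19:36348079-36348328 (plus strand), the most upstream of 3 annotated starts of that gene.
Phf19: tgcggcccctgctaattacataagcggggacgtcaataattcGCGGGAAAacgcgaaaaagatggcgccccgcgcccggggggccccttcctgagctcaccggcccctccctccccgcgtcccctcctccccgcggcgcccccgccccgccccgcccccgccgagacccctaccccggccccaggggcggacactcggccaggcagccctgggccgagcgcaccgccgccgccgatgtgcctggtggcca
Suz12: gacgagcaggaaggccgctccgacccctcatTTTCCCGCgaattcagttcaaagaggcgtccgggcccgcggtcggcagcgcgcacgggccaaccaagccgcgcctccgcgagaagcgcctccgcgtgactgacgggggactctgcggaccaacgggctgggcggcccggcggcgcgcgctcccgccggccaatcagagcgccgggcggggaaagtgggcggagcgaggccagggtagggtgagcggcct
Pcgf5: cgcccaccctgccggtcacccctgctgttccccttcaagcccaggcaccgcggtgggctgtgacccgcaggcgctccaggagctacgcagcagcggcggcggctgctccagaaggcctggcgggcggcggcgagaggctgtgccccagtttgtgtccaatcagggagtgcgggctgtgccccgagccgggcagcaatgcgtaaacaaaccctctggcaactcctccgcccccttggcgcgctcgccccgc
Upstream sequences were matched for 27 of the 31 member genes, over 39 annotated starts, and not for Cbx2, Rybp, Yaf2 and Pcgf1. Of the 39 sequences 2 (5.13%) held the E2F letters, those of Phf19 and Suz12, against 0.895% of 32851 sequences of the same length over all genes. Phf19 rose by 0.53 as given above, whereas Suz12 differed by -0.06 and did not pass. The STAT site TTCNNNGAA was found in 2 of the 39 (Pcgf6 and Phc1) and in 7.02% of all. The member sequences held a median of 21 CG dinucleotides in 250 bases, beside 6 over all genes, and their median GC content was 66% beside 52.4%. The E2F letters contain a CG, so the share over all genes is not a like background for these sequences. Letter matches describe these windows only.

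The PRC2 core held no gene that passed. Ezh1 and Ezh2, the alternative methyltransferases, were both below wild type in every knockout-labelled array. Ezh1 read 8.91, 8.75 and 8.88 in wild type and 8.62, 8.49 and 8.45 in knockout-labelled arrays, a difference of -0.33 (SE 0.10, 95% interval -0.56 to -0.09, limma adjusted p = 0.12). Ezh2 read 7.01, 7.17 and 6.83 in wild type and 6.49, 6.72 and 6.82 in knockout-labelled arrays, also a difference of -0.33 (SE 0.13, adjusted p = 0.212). For Ezh2 the closest arrays of the 2 groups were 0.01 apart, so the groups barely separate. The change of Ezh2 relative to that of Ezh1 was -0.00, with an exact two-sided permutation p of 1, and the Ezh2 minus Ezh1 value had an SD between arrays of 0.25 in the knockout-labelled and 0.24 in the wild type group. With trend and robust fitting Ezh1 passed (limma adjusted p = 0.0364). It did not pass after median centring (0.0857), after another quantile normalization (0.0876) or with the covariate described below (-0.40, 0.413).

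The other core subunits had smaller differences. Eed, whose protein binds H3K27me3 and stimulates the enzyme, had means of 7.91 ± 0.05 in wild type and 8.14 ± 0.13 in knockout-labelled arrays. Its groups did not overlap, at a difference of 0.23 that did not pass (SE 0.11, limma adjusted p = 0.3). Suz12, the scaffold subunit, differed by -0.06 (95% interval -0.29 to 0.17), and the histone-binding subunits Rbbp4 and Rbbp7 differed by -0.08 and 0.04, the last of which became -0.01 after median centring of the arrays. Over the 6 core genes the median difference was -0.07, beside -0.01 over all genes.

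The accessory subunits of PRC2 went in both directions. Jarid2, a cofactor of the PRC2.2 assembly that lacks demethylase activity, read 8.09, 8.01 and 8.18 in wild type and 7.53, 7.84 and 7.67 in knockout-labelled arrays. Every knockout-labelled array was below every wild type array, but the spread inside the knockout-labelled group was the larger one (SD 0.15 against 0.08). The difference of -0.42 did not pass (SE 0.11, 95% interval -0.67 to -0.16, limma adjusted p = 0.0725). It passed after median centring (-0.47, adjusted p = 0.0419), with trend and robust fitting (0.0271) and among genes above the 50th percentile of level (0.0367). These were 3 of 15 alternative fits, and Jarid2 passed in 0 of the 6 fits that left out an array.

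Of the Polycomb-like proteins, which define the PRC2.1 assembly, Phf19 rose and the others did not pass. Phf1 read 7.18 ± 0.07 in knockout-labelled arrays against 7.34 ± 0.04 in wild type, without overlap (difference -0.16, limma adjusted p = 0.436). Mtf2 read 6.87, 6.25 and 6.85 in wild type arrays and 6.78 ± 0.20 over the knockout-labelled arrays. Wild type replicate 2 alone was low, and the difference of 0.12 became -0.08 without it. Aebp2, a zinc finger partner of Jarid2 in PRC2.2, differed by 0.07, and by -0.02 without the same array. The change of Mtf2 minus that of Phf19 was -0.41 (exact two-sided permutation p = 0.2, where 3 against 3 arrays cannot go below 0.1).

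The catalytic pair of PRC1 was close to level. Rnf2, the main H2A ubiquitin ligase of most cells, read 9.16, 8.99 and 9.10 in wild type and 8.90, 9.07 and 9.28 in knockout-labelled arrays. The groups overlapped fully, and the difference was -0.00 (SE 0.12, 95% interval -0.28 to 0.27, limma adjusted p = 0.997). Ring1, its paralogue, read 6.21, 6.55 and 6.22 in wild type and 6.55, 6.19 and 6.42 in knockout-labelled arrays (difference 0.06, 95% interval -0.25 to 0.37), and the sign turned after another quantile normalization (-0.08). For both ligases the intervals of the fit without covariate lay within a 1.5-fold difference in either direction. With the covariate described below Ring1 differed by 0.59 and Rnf2 by -0.31, and neither passed.

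The PCGF subunits, which name the PRC1 assemblies, spread from -0.48 to 0.49, close to the -0.42 to 0.53 of the PRC2 accessory genes. At the lower end stood Pcgf1, the subunit of the variant assembly that contains the CpG-binding protein KDM2B and the corepressor BCOR. Its wild type values were 7.04, 7.12 and 6.91, and its knockout-labelled values were 6.73, 6.28 and 6.60. The groups did not overlap, at a difference of -0.48 (SE 0.13, 95% interval -0.78 to -0.18, limma adjusted p = 0.0745). It did not pass, although it passed after another quantile normalization (-0.59, adjusted p = 0.0431), with trend and robust fitting (0.0421) and among genes above the 50th percentile of level (0.0424). These were 3 of 15 alternative fits, and Pcgf1 passed in 0 of the 6 fits that left out an array. With the covariate described below its difference was -0.16 (limma adjusted p = 0.83).

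At the upper end stood Pcgf5, which rose as given above. Pcgf6, the subunit of the E2F6 and L3MBTL2 assembly, read 6.12, 5.79 and 6.18 in wild type and 6.31, 6.34 and 6.25 in knockout-labelled arrays, without overlap (difference 0.27, limma adjusted p = 0.287). Pcgf3, the closest relative of Pcgf5, differed by 0.04, a sign that turned after both rescalings (-0.15 and -0.01). The canonical subunits did not pass: Bmi1 read 4.59 ± 0.11 in knockout-labelled arrays against 4.78 ± 0.14 in wild type (-0.18, adjusted p = 0.454), and Pcgf2 differed by 0.22 at a level below the background guide. The change of Bmi1 minus that of Pcgf2 was -0.41, with arrays of the groups apart and the smallest exact two-sided permutation p that the design allows (p = 0.1, or 0.25 after Benjamini-Hochberg adjustment over the 5 paralogue pairs tested).

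**Figure D3:**
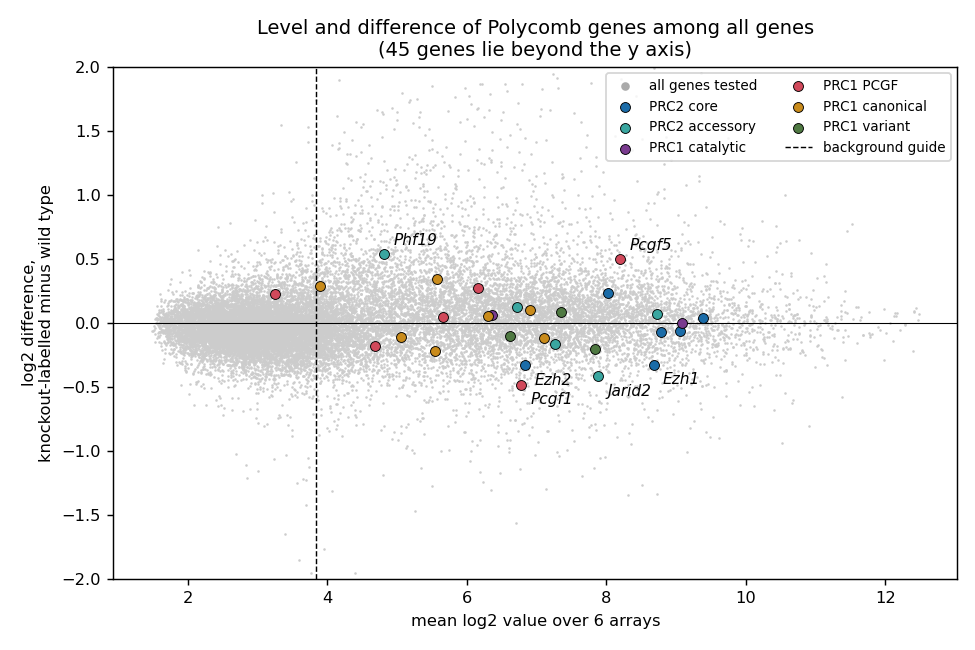
Each point is a gene, with its mean log2 value over 6 arrays on the x axis and its log2 difference (knockout-labelled minus wild type) on the y axis; grey points are all 22180 genes tested, coloured points the 29 Polycomb genes by role, and the dashed line the background guide of 3.84. The Polycomb genes lie within the cloud of genes of like level, and 28 of 29 are to the right of the guide.

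Of the 7 measured subunits particular to canonical PRC1, 0 passed in either direction and the median difference was 0.05. Cbx8, a chromodomain reader of H3K27me3, read 3.60, 4.02 and 3.66 in wild type and 4.02, 4.05 and 4.07 in knockout-labelled arrays. The groups touched, and the wild type mean of 3.76 lay below the background guide (difference 0.29, SE 0.13, limma adjusted p = 0.27). The readers Cbx2 and Cbx7 differed by -0.11 and -0.12 and overlapped between groups. Scmh1, a PRC1-associated protein with MBT repeats, read 5.84, 5.20 and 5.20 in wild type and 5.92, 5.69 and 5.64 in knockout-labelled arrays. Wild type replicate 1 alone overlapped the knockout-labelled values, at a difference of 0.34 (SE 0.18, adjusted p = 0.362), and without it the difference was 0.56 and passed (adjusted p = 0.0437).

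The polyhomeotic genes, whose SAM domains join PRC1 particles to one another, did not move together. Phc1 read 5.44 ± 0.15 in knockout-labelled arrays against 5.66 ± 0.10 in wild type (difference -0.22, limma adjusted p = 0.369). Phc2 differed by 0.05, and by -0.09 after another quantile normalization. Phc3 read 7.05, 6.51 and 7.03 in wild type arrays and 6.96 ± 0.07 in knockout-labelled arrays, and its difference of 0.10 was -0.08 without the low wild type replicate 2.

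The genes of variant PRC1 that were measured also had no call. Rybp, whose protein stimulates the ligase and binds ubiquitinated H2A, read 8.15, 7.85 and 7.80 in wild type and 7.76, 7.68 and 7.75 in knockout-labelled arrays. The groups did not overlap but came within 0.05 of each other, at a difference of -0.20 (SE 0.12, limma adjusted p = 0.42). Its paralogue Yaf2 read 7.42, 7.30 and 7.19 in wild type and 7.36, 7.45 and 7.37 in knockout-labelled arrays, with overlap (0.08, adjusted p = 0.74). The change of Rybp minus that of Yaf2 was -0.29, with the groups apart (exact two-sided permutation p = 0.1, 0.25 after adjustment over the 5 pairs). L3mbtl2, an MBT protein of the PCGF6 assembly, differed by -0.10.

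Counted over both complexes, 11 of 29 members (37.9%) had groups that did not overlap, 5 with knockout-labelled arrays above and 6 below, whereas over all genes the share was 23.5% (13.7% above and 9.78% below). Those above were Eed, Phf19, Pcgf5, Pcgf6 and Cbx8, and those below were Ezh1, Ezh2, Jarid2, Phf1, Pcgf1 and Rybp. Among genes above the background guide, where 28 of the members lie, the share was 33.8%. PRC2 genes had a median difference of -0.06 over 11 members and PRC1 genes of 0.05 over 18. Wild type arrays varied more than knockout-labelled arrays, with a median SD of 0.14 against 0.10 over members and of 0.15 against 0.12 over all genes.

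Genes that work with or against the complexes were described from a list of 30, of which 27 were measured. In this list 1 rose, 0 fell and 26 did not pass, with a median difference of 0.03. The gene that rose was Sfmbt2, an MBT-domain relative of the fly Polycomb protein Sfmbt. It read 5.10, 5.03 and 4.79 in wild type and 5.79, 5.68 and 5.96 in knockout-labelled arrays, without overlap. The means were 5.81 ± 0.14 and 4.97 ± 0.16, a difference of 0.84 (SE 0.12, limma adjusted p = 0.00412), and the gene passed in 14 of 15 alternative fits. Next by p and not passing were the Scm-like gene Scml4 (-0.36, adjusted p = 0.0712), the H3K27 demethylase gene Kdm6b (0.41, adjusted p = 0.124) and the histone deacetylase gene Hdac2 (0.28, adjusted p = 0.17). Kdm6a, the other H3K27 demethylase gene, differed by -0.11, and Bap1, which encodes the H2A deubiquitinase, by -0.05.

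Genes known as Polycomb targets were listed for development and for T cells. Of 37 measured developmental targets, 0 rose and 0 fell (limma with adjusted p under 0.05). They were genes such as Hox, Pax and Gata genes that PRC2 silences in most differentiated cells. Unadjusted p was under 0.05 for 2 of them, Gata6 (0.35) and Hoxb2 (0.34), both higher and below the background guide. Over all genes that cut took 11.2% higher and 6.83% lower. The median difference of the 37 was -0.10, and 30 of 37 lay at or below the background guide, where differences can be compressed. Array means of the list were 3.33 to 3.63 in wild type, highest in replicate 2, and 3.37 to 3.42 in knockout-labelled arrays. The groups thus overlapped, and a median without wild type replicate 2 was not computed. Cdkn2a, the cell cycle inhibitor locus that Polycomb proteins repress in many tissues, read 4.36 in both groups (difference -0.00), and Cdkn2b differed by 0.24 (adjusted p = 0.366).

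Of 14 measured genes reported to be restrained or marked by PRC2 in T cells, 5 rose, 0 fell and 9 did not pass, with a median difference of 0.38. Background called 4.30% of all genes higher, and this list was chosen with earlier results of these data known, so its count is not independent evidence. Eomes, a T-box factor of memory and effector cells, read 8.26, 8.27 and 8.34 in wild type and 9.59, 9.60 and 9.50 in knockout-labelled arrays (difference 1.27, SE 0.10, limma adjusted p = 9.86e-05). Its relative Tbx21, which encodes T-bet, read 6.00, 6.28 and 6.01 in wild type and 7.07, 6.87 and 7.13 in knockout-labelled arrays (0.93, SE 0.12, adjusted p = 0.00218). Both genes were higher in every knockout-labelled array. Gata3, a factor of type 2 differentiation, rose by 0.84 (SE 0.10), Ifng, the interferon-gamma gene, by 0.82 (SE 0.11), and Bcl2l11, which encodes the death protein Bim, by 0.86 (SE 0.11). Among the 9 that did not pass, Il13 (0.43, limma adjusted p = 0.091), Prdm1 (0.58, 0.141), Il7r (0.32), Foxo1 (0.26) and Id2 (0.14) had positive differences. Il10 (-0.39), Ccr7 (-0.26), Klf2 (-0.16) and Il4 (-0.08) had negative ones.

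**Figure D4:**
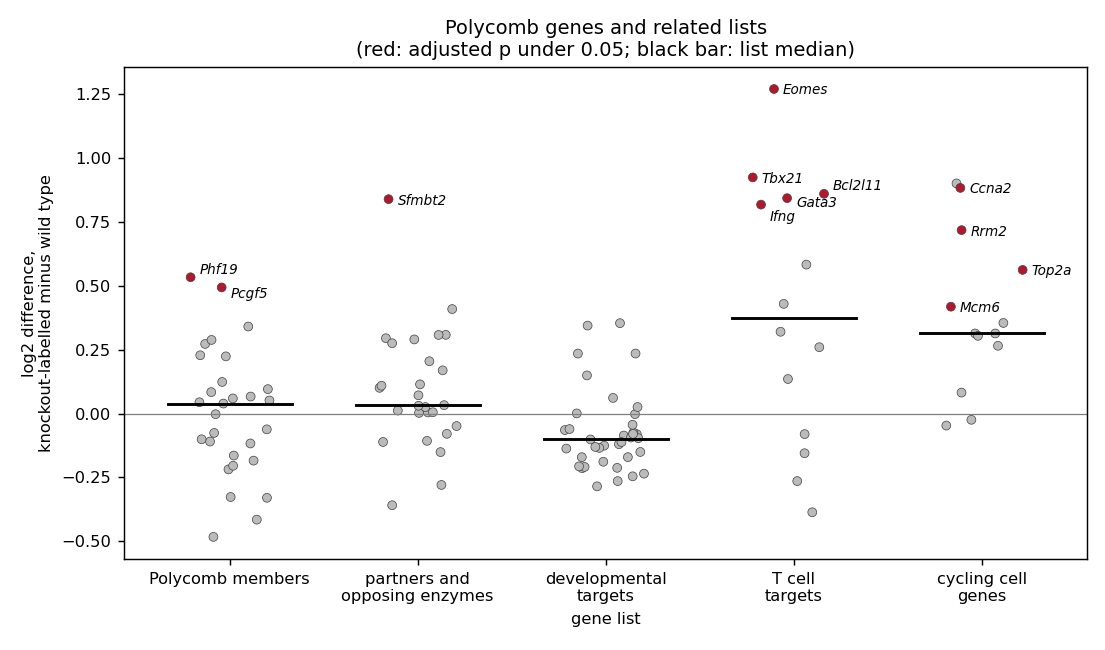
Each point is the log2 difference (knockout-labelled minus wild type) of 1 gene in 5 lists: the 29 Polycomb members, 27 partners and opposing enzymes, 37 developmental targets, 14 T cell targets and 13 genes of cycling cells. Red points passed at an adjusted p under 0.05, and black bars are list medians, which were 0.04, 0.03, -0.10, 0.38 and 0.31.

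Genes of cycling cells, with which Ezh2 is often expressed, were set beside the members. Of 13 measured, 4 rose, 0 fell and 9 did not pass (median difference 0.31), and their array means were 5.91 to 5.97 in wild type and 6.26 to 6.40 in knockout-labelled arrays. The 4 were Rrm2 (0.72), Ccna2 (0.88), Top2a (0.56) and Mcm6 (0.42, limma adjusted p = 0.0491). Over all genes 4.30% were called higher, and 7.87% of those above the background guide. Those of the list that did not pass were Mki67 (0.90, limma adjusted p = 0.0796), Mcm2 (0.36), Bub1 (0.31), Aurkb (0.31), Birc5 (0.30), Mcm5 (0.27), Ccnb2 (0.08), Pcna (-0.02) and Cdk1 (-0.05). Mcm6 passed in 6 of 15 alternative fits, with an adjusted p of up to 0.314, and all 4 calls were lost with the covariate described below. Phf19 was higher in the same arrays, while Ezh2 differed by -0.33 and did not pass. The mean of the 16010 probe sets without a gene name was also higher in knockout-labelled arrays, at 4.12 to 4.18 against 3.93 to 4.05 in wild type arrays. With that mean as a covariate 0 members passed, the differences of Phf19 and Pcgf5 were 0.65 and 0.34 (limma adjusted p = 0.187 and 0.443), and 134 of 22180 genes passed. The differences of Scmh1 and Pcgf6 turned to -0.02 and -0.09. Of the T cell targets and partners that rose, Eomes still passed with the covariate (difference 1.27, limma adjusted p = 0.0373). The others did not pass, with these differences and adjusted p: Tbx21 (1.28, 0.0521), Gata3 (1.02, 0.0694), Ifng (0.99, 0.099), Bcl2l11 (0.83, 0.136) and Sfmbt2 (0.87, 0.181). The covariate itself did not overlap between the groups, so this fit cannot tell it apart from the knockout label. A call lost in it thus does not mean that the difference was accounted for. Whether cycling cells or the shift of the unnamed probe sets have a part in the differences of the members was not tested further.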

How the data were processed

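The deposited table holds log2 expression values of 41345 probe sets on 6 arrays, made by the authors with RMA, and R 3.1.1 is also named, per the submitters' processing notes. RMA corrects background, equalises array distributions by quantile normalization and summarises probes, which compresses differences of dim genes. The sources used here give neither its settings, nor any centring, nor annotation and build. In the platform annotation 23521 probe sets named 1 gene symbol, 1814 several and 16010 none. The number of arrays limits the precision. Array medians lay between 3.69 and 3.78.

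Groups and replicate numbers came from the sample titles. All 22180 genes were fitted with the lmFit and eBayes functions of limma 3.58.1 (R 4.3.3) without covariate and adjusted by Benjamini-Hochberg. The fit was tested on simulated data. Intervals are limma's 95% intervals, unadjusted. Paralogue pairs were compared by exact two-sided permutation of the 6 arrays. Values in every array are given for members that passed and for the pair with the smallest p in each role group. Other members, and up to 4 genes per list by p that passed, are given by means or differences, and further genes, such as the fifth T cell target Ifng, were named after their values were seen. Members and lists were chosen with earlier results of these data known. All 29 measured members matched the RefSeq gene table by identifier. Alternatives were each array left out, 2 rescalings, array weights, trend with robust fitting, filters keeping genes above the 25th or 50th percentile of level, a replicate block, averaged probe sets, a covariate and an adjusted p under 0.1.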

Additional observations from a re-analysis of the deposited data

How the results depend on the processing

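Of 433 comparisons of a member's difference with an alternative fit, 386 kept direction and side of the threshold, 11 lost and 8 gained a call, and 28 turned sign. The count of 2 members higher was 0 to 3 when an array was left out, 1 after another quantile normalization and 0 with the covariate; the count of 0 lower was 0 without any 1 array, 1 after median centring, 1 after quantile normalization, 2 above the 50th percentile of level, 3 with trend and robust fitting and 2 at an adjusted p under 0.1. All genes past the threshold numbered 1220, 615 to 1307 without 1 array and 134 with the covariate, which cannot be told apart from the knockout label. The share of calls that were higher was 78.2% as deposited, against 68.8% with median centring and 57.1% with quantile normalization. The cause of these changes was not tested.

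With the replicate number as a block the count of members higher was 1, since Pcgf5 had an adjusted p of 0.0613, and 912 genes passed. Deviations of same-numbered arrays correlated at -0.07, -0.16 and -0.07, so the numbers are not treated as pairs.

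Signs turned mostly for members with small differences, though with the covariate also for Scmh1 (0.34 in the values as reported), Pcgf6 (0.27) and Bmi1 (-0.18). The differences of these members ranged, over the fits that left out 1 array, as follows: Mtf2 -0.0813 to 0.23, Aebp2 -0.0223 to 0.13, Ring1 -0.0206 to 0.17, Rnf2 -0.10 to 0.0882, Pcgf3 -0.024 to 0.17, Phc2 -0.0126 to 0.13, Phc3 -0.0785 to 0.19. Turned values after quantile normalization were Ring1 -0.0761, Pcgf3 -0.15, Phc2 -0.0895, Phc3 -0.00569, and after median centring Rbbp7 -0.0106, Pcgf3 -0.0055. With the covariate they were Rbbp4 0.12, Mtf2 -0.62, Aebp2 -0.28, Bmi1 0.0803, Pcgf3 -0.33, Pcgf6 -0.094, Cbx2 0.0589, Phc3 -0.53, Scmh1 -0.0212, Yaf2 -0.0128. The Ezh2 minus Ezh1 contrast ranged from -0.11 to 0.14 without an array, and the Rnf2 minus Ring1 contrast from -0.23 to 0.11, with 0.0635 after quantile normalization. Pcgf2 and Cbx8 were too dim for the 50th percentile filter, and the number of arrays limits all intervals.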

Other observations

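Among the members, Rbbp4 and Pcgf3 had a further probe set with 1 gene symbol. The other Rbbp4 probe set had means of 2.12 (knockout-labelled) and 2.29 (wild type), and the other Pcgf3 probe set 2.76 and 2.62, all below the background guide of 3.84. Their differences of -0.17 and 0.14 did not pass (limma adjusted p = 0.442 and 0.663 over all probe sets).

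Wild type replicate 2 was the wild type array farthest from the other two for 15 of 29 members (51.7%), and for 40.4% of all genes. Among these members it was the low array for Mtf2, Phc3, Aebp2, Ezh1, Phf1, Rnf2, Pcgf5, Pcgf6 and L3mbtl2. It was the high array for Ring1, Rbbp7, Cbx2, Cbx8, Phc1 and Phc2.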
